A study of Bos taurus with 30 samples.

Results

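Blood drawn from the jugular vein of 5 heifers was stored for 3, 6 or 8 h before its peripheral white blood cells (PWBCs) were recovered, and the 15 libraries of these samples were compared with the 5 libraries of jugular blood processed at 1 h. These 20 libraries are part of 30 in the series, which also holds 5 libraries of coccygeal (tail) vein blood at 1 h and 5 of jugular blood stored for 24 h. The columns of the count table do not say which stored library is 3, 6 or 8 h. The 15 columns that the study's code does not place in another group were therefore pooled as blood stored for 3-8 h, with 3 libraries per heifer, each given to the heifer in whose run of library numbers it lies. The heifers, named subjects A to E, were crossbred Angus x Simmental animals of about 14 months. All 5 had been synchronized with GnRH, a progesterone insert (CIDR) and PGF2α and had expressed estrus, so hormone treatment and cycle stage are shared by every group. Each tube held K2 EDTA and stood on ice until the buffy coat was lysed for red cells and taken up in TRIzol. Each heifer gave 1 jugular library at 1 h, so the 5 heifers are the replicates and the stored libraries of a heifer are not independent of each other.

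PWBCs are a mixture of lymphocytes, monocytes and granulocytes, and platelets that stay in the buffy coat add RNA of their own. In blood kept outside the body, leukocytes still degrade and make transcripts, and cold slows both processes. The replication-dependent histone genes make short transcripts that end in a stem-loop in place of a poly(A) tail, so that libraries made from poly(A) RNA normally hold few fragments of them. Bulk counts cannot tell fewer cells of a type from less RNA per cell.

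The total count ranged from 12412619 to 19492274 over the 20 libraries, at which 3 counts correspond to 0.154 to 0.242 CPM, the count scaled to the library's total. In 3 of 5 subjects the mean total of the stored libraries was above that of the 1 h library, by 735701 counts over all 5 (SD 2566400, n = 5, two-sided exact permutation test by sign flips, p = 0.688). Genes detected at a CPM of 1 or more numbered 13242 ± 186 (SD, n = 5) at 1 h, and the stored libraries had 68.1 more on average (SD 69.2, n = 5, higher in 4 of 5 subjects, p = 0.125 by the same exact test, which cannot go below 0.063 with 5 pairs). Each of the 15 stored libraries resembled the other libraries of its own run of columns most, with mean correlations of 0.45 to 0.75 against at most 0.22 with any other subject. One stored library of subject A stood farthest from the other jugular libraries of its subject (mean correlation 0.981, against 0.983 in the next library and up to 0.995 in others). Its summed neutrophil markers were at 2050 CPM, against at most 683 CPM in any other stored library, and the main results that rest on it are given with and without it.

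**Figure D1:**
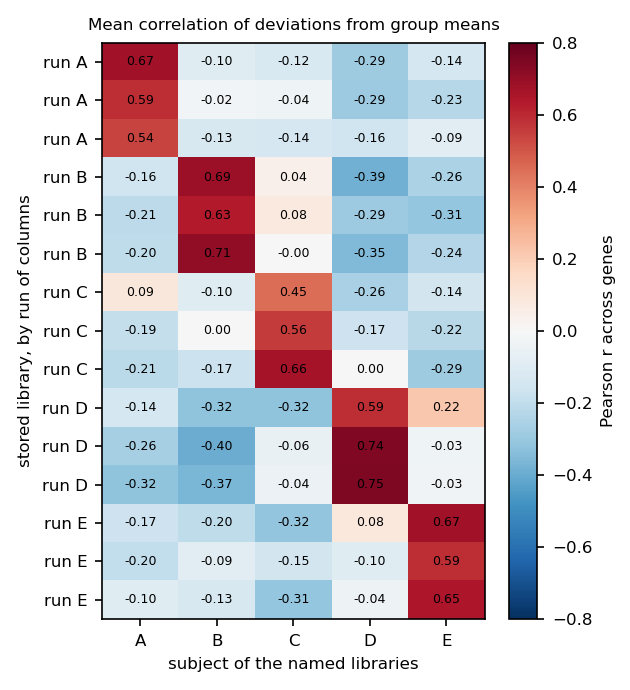
Mean Pearson correlation across genes between each of the 15 stored libraries (vertical axis, by run of library columns) and the libraries that the study's code names for each of 5 subjects (horizontal axis), computed on deviations of log2(CPM + 1) from group means. The cells on the diagonal blocks lie between 0.45 and 0.75, and all others between -0.40 and 0.22.

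Storage for 3-8 h left no gene past the study's rule, which asks for an adjusted p under 0.05 in both edgeR and DESeq2 and an absolute log2 fold change above 0.5. Of 14018 genes tested, 0 (0%) were called. The group pools 3, 6 and 8 h, so a difference present at 1 of these times alone would be diluted here. The study itself reported no gene past its rule for 3 h or 6 h against 1 h. For 8 h against 1 h it reported some, H1-4 and H4C3 among them. In edgeR's quasi-likelihood test alone 0 genes had an adjusted p under 0.05, and the smallest adjusted p was 0.318. In DESeq2's Wald test alone 1 gene (0.00713%) passed, PPBP, whose log2 fold change of 0.30 lies under the threshold. PPBP did not pass DESeq2 without subject B, C or E, or with no subject block. With only the 20 libraries of 1 h and 3-8 h fitted, 4 genes passed DESeq2, ENSBTAG00000028359 and PPBP among them, and 0 passed edgeR. DESeq2's independent filtering left 7338 of the genes without an adjusted p, so that these could not pass. At an unadjusted p under 0.05, edgeR listed 1087 genes (7.75%), of which 819 (5.84%) were higher and 268 (1.91%) lower after storage, and DESeq2 listed 1118 (7.98%). The same fit called 581 genes (4.14%) for 24 h against 1 h, a comparison that shares the 1 h libraries, and 181 (1.29%) for 24 h against 3-8 h. Without the subject block 0 genes were called and 204 (1.46%) had an unadjusted edgeR p under 0.05. Without the stored library of subject A that stood apart 0 genes were called, while 1 gene passed edgeR alone (PPBP, adjusted p 0.0424, log2 fold change 0.33) and 17 passed DESeq2 alone.

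Differences between 3-8 h and 1 h were small for nearly all genes. The log2 fold change was positive for 7327 genes (52.3%). Its median was 0.00, with a 5th percentile of -0.16 and a 95th percentile of 0.24. The standard error of the DESeq2 log2 fold change had a median of 0.08 (quartiles 0.06 and 0.13). The mean of the stored libraries exceeded the 1 h value in all 5 subjects for 929 genes (6.63%) and fell short of it in all 5 for 555 (3.96%). In 0 genes (0%) did the 15 stored libraries all lie above, or all lie below, the 5 libraries of 1 h.

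**Figure D2:**
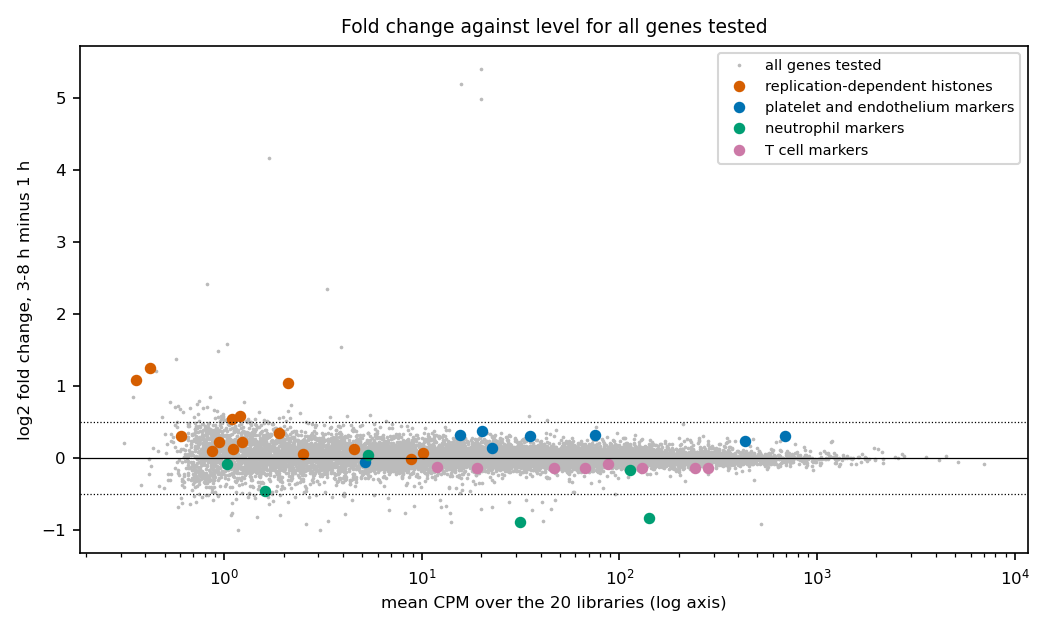
Log2 fold change in edgeR of 3-8 h minus 1 h (vertical axis) against mean CPM over the 20 libraries (horizontal axis, log scale) for 14018 genes, with dotted lines at 0.5 and -0.5. Histone genes lie mostly above 0 and T cell markers just below it, and 2 neutrophil markers lie below -0.5.

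Of the named genes that were higher after storage, a platelet transcript had the smallest p in edgeR. PPBP, which encodes the platelet chemokine precursor pro-platelet basic protein (ENSBTAG00000011961, ARS-UCD1.2 chr6:88915320-88925227), had 818, 427, 567, 595 and 556 CPM at 1 h in subjects A to E. The 15 stored libraries ranged from 565 to 925 CPM with a median of 713. Of the 15 stored libraries, 14 exceeded the 1 h library of their own subject, while 2 exceeded all 5 libraries of 1 h, since subject A was high from the start. Its log2 fold change was 0.30 in edgeR (95% interval in DESeq2 0.17 to 0.43), and the adjusted p was 0.492 in edgeR but 0.023 in DESeq2. Coccygeal blood of the same heifers at 1 h held 627 to 899 CPM of PPBP (median 659), and against it the fitted log2 fold change was -0.01.

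The platelet and endothelium marker list had 8 members tested of 10 listed, and 7 of the 8 were higher at 3-8 h. The median log2 fold change of the list was 0.30, against 0.00 for all genes, and 6 members had an unadjusted edgeR p under 0.05 in the higher direction, where 5.84% of all genes did. None of the 8 passed the adjusted test in edgeR, and PPBP alone passed it in DESeq2. PPBP did not pass DESeq2 without subject B, C or E, against coccygeal blood, or with no block. The count of 6 was 3 without subject B (3.12% of all genes), 3 without subject C (5.3%), 4 without subject D (5.8%) and 2 with no block (1.03%). Besides PPBP these were GNG11, a G protein subunit abundant in platelets (log2 fold change 0.24), NRGN, the calmodulin-binding protein neurogranin (0.32), SELP, the adhesion receptor P-selectin of platelet granules (0.38), VWF, the von Willebrand factor that tethers platelets (0.33), and LY6G6F (0.31), a platelet membrane protein. P2RY1, an ADP receptor, was at 0.14, and F2RL2, a thrombin receptor family member, at -0.06. Their summed level ran from 870 to 1486 CPM at 1 h (median 1092) and from 1133 to 1614 CPM at 3-8 h (median 1322). All 3 stored libraries lay above the 1 h library in subjects B to E, whereas in subject A they lay on both sides of it, at 1236, 1532 and 1614 CPM against 1486. The value of 1236 CPM came from the library that stood apart, and without it the mean of the stored sums was above the 1 h sum in 5 of 5 subjects. Against the coccygeal libraries at 1 h, whose sums ran from 1088 to 1811 CPM, the median log2 fold change of the list was 0.08. There 0 members reached an unadjusted edgeR p of 0.05, where 4.62% of all genes did in the higher direction. With both veins at 1 h as the baseline the median was 0.17, again with 0 members (7.59% of all genes). The part of platelet number in these differences was not tested.

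The other named genes with the smallest p in the higher direction were not platelet genes. ABCC10, an ATP-binding cassette drug transporter, had 96.3, 118.5, 114, 87.7 and 96.1 CPM at 1 h in subjects A to E. Its stored libraries ranged from 92.1 to 162 CPM with a median of 119, and all 15 exceeded the 1 h library of their subject. The log2 fold change was 0.26 (95% interval in DESeq2 0.13 to 0.38), which passed neither edgeR (adjusted p 0.492) nor DESeq2 (0.099). KCP, a secreted regulator of bone morphogenetic protein signalling, had 40.3, 39.7, 59.5, 11.4 and 42.8 CPM at 1 h and 13.2 to 67.8 CPM (median 59.7) after storage. Subject D was lowest at both times, so the groups overlapped although 14 of 15 stored libraries were above their own 1 h library (log2 fold change 0.39, adjusted p 0.492 in edgeR and 0.115 in DESeq2).

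The other 7 had log2 fold changes of 0.19 to 0.31. CACNA1S, a calcium channel subunit known from skeletal muscle, was at a log2 fold change of 0.25 with 15 of 15 stored libraries above their own 1 h library. KCNN4, the calcium-activated potassium channel of lymphocytes and red cells, was at 0.25 with 15 of 15, and KCNMB3, a regulatory subunit of another potassium channel, at 0.31 with 14 of 15. SLC52A2, a riboflavin transporter, stood at 0.23. SNAPC4, a subunit of the complex that starts transcription of small nuclear RNA genes, stood at 0.29, SMPD4, a sphingomyelinase, at 0.19 and ABHD12, a lipid hydrolase, at 0.23. ABHD12 was higher in 4 of 5 subjects and the others in 5 of 5. Adjusted p-values of these 7 genes lay at 0.492 or 0.502 in edgeR.

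Of the genes with no symbol, ENSBTAG00000018364 had the smallest p of all genes tested. It had 7.28, 5.79, 6.20, 5.28 and 6.53 CPM at 1 h and 5.72 to 10.7 CPM (median 8.49) after storage. All 15 stored libraries lay above the 1 h library of their subject and 13 lay above all 5 libraries of 1 h (log2 fold change 0.44, edgeR p 3.28e-05, adjusted p 0.318). ENSBTAG00000028359, singled out after its values were seen, differed more. It had 1.23, 1.68, 0.783, 1.39 and 3.06 CPM at 1 h, from 12 to 38 counts, and 1.37 to 10.1 CPM (median 4.15) after storage, from 23 to 170 counts. Its 15 stored libraries were all above their own 1 h library and 12 were above all libraries of 1 h. The log2 fold change was 1.54 (95% interval in DESeq2 0.99 to 2.14), with an edgeR adjusted p of 0.492. DESeq2 gave no adjusted p in this fit because its independent filtering removed the gene for its low mean count. With only the 20 libraries of 1 h and 3-8 h fitted, its DESeq2 adjusted p was 0.0044. No gene passed edgeR in that fit (smallest adjusted p 0.512). The 24 h libraries of this gene ran from 3.44 to 16.1 CPM (median 10.5).

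**Figure D3:**
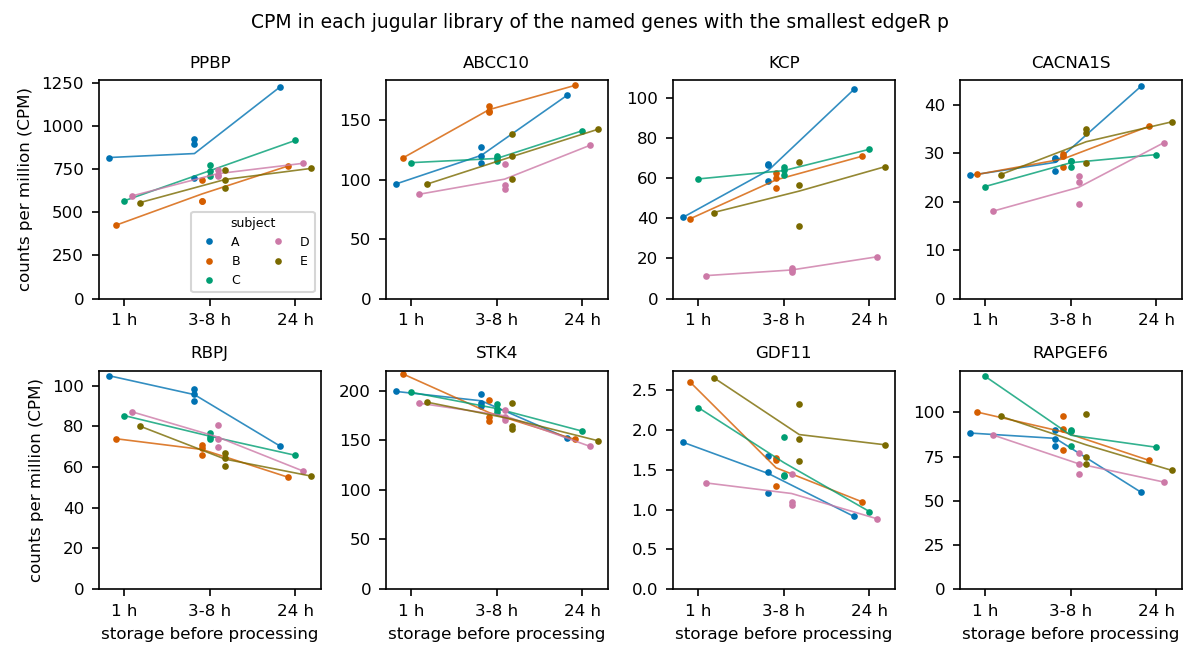
CPM of 8 named genes (vertical axes, from 0) in the jugular libraries at 1 h, 3-8 h and 24 h (horizontal axis), with 1 point per library, 1 colour per subject and lines through subject means. PPBP, ABCC10, KCP and CACNA1S lie higher after storage and RBPJ, STK4, GDF11 and RAPGEF6 lower, with overlap between 1 h and 3-8 h in each panel.

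Named genes with the smallest p in the lower direction had log2 fold changes of -0.47 to -0.10. RBPJ, the DNA-binding factor through which Notch receptors act (ARS-UCD1.2 chr6:45773063-45883952), had 105.02, 73.95, 85.4, 87.2 and 80.2 CPM at 1 h in subjects A to E. The stored libraries ranged from 60.3 to 98.7 CPM with a median of 73.6, and all 15 lay below the 1 h library of their own subject. The log2 fold change was -0.19 (95% interval in DESeq2 -0.29 to -0.10), which passed neither edgeR (adjusted p 0.492) nor DESeq2 (0.099). STK4, a kinase of the Hippo pathway needed by T cells, had 199, 217, 198, 187 and 188 CPM at 1 h and 162 to 197 CPM (median 180.2) after storage. Its 15 stored libraries were also all below their own 1 h library, and 12 were below all 5 libraries of 1 h (log2 fold change -0.14, adjusted p 0.492 in edgeR and 0.175 in DESeq2).

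DOCK8, an exchange factor that steers leukocyte migration, had a log2 fold change of -0.13 and JAK1, the kinase of many cytokine receptors, of -0.10. Both were lower than the own 1 h library in 15 of 15 stored libraries, and 14 of the 15 stored values of JAK1 (600.4 to 685 CPM) were below all 5 values of 1 h (665 to 704 CPM). SH3KBP1, an endocytic adaptor, was at -0.11, NCOA2, a nuclear receptor coactivator, at -0.17, PEAK1, a cytoskeletal pseudokinase, at -0.19 and RAPGEF6, an exchange factor for Rap GTPases, at -0.25. MLLT3, a subunit of the super elongation complex, was at -0.39 and GDF11, a secreted ligand of the TGF-beta family, at -0.47 on 18 to 48 counts per library. NCOA2 was lower in 4 of 5 subjects and the others in 5 of 5. All 8 had an adjusted p between 0.492 and 0.511 in edgeR, and none passed. The unnamed genes lowest in p, ENSBTAG00000020387 and ENSBTAG00000021164, were at -0.15 and -0.17.

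The replication-dependent histones had 15 members tested of 16 listed, H2AC10 being the one not analysed here, and 14 of the 15 were higher at 3-8 h. The median log2 fold change was 0.23, against 0.00 for all genes. H4C3, H2BC18 and H4C8 reached the filter on low counts only with the help of the 24 h libraries, where they are high, so these counts are a description. Over the other 12 members the median was 0.17, with 11 higher. Of the 15, 2 had an unadjusted edgeR p under 0.05, where 5.84% of all genes did in the higher direction, and 0 passed the adjusted test. The 2 were H1-4 and H4C3, so among the other 12 members H1-4 alone had such a p. The count of 2 was 5 with the stored libraries summed per subject (6.97% of all genes), 4 without subject D (5.8%), 4 against coccygeal blood (4.62%) and 7 against both veins (7.59%). The list was drawn up from genes that the study and an earlier look at these libraries found higher at 24 h, so its direction here is not independent evidence. Near-identical histone copies could also have shared fragments.

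H1-4 encodes a linker histone, which binds the DNA between nucleosomes. It had 0.564, 1.52, 0.717, 1.22 and 1.77 CPM at 1 h in subjects A to E, and 0.891 to 7.57 CPM (median 2.07) after storage. In subject E the 3 stored libraries had 2.14, 3.72 and 7.57 CPM and in subject A 0.891, 0.931 and 2.37 CPM, so the libraries of 1 subject spread more than the 1 h libraries of all 5. Of the 15 stored libraries, 14 lay above their own 1 h library and 8 above all libraries of 1 h (log2 fold change 1.04, 95% interval in DESeq2 0.43 to 1.67, adjusted p 0.511 in edgeR). At 24 h the same gene had 8.32 to 16.2 CPM, above every stored library of 3-8 h.

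H4C3, a core histone H4 gene, was counted 2 to 5 times in each 1 h library and 1 to 27 times in each stored one. Its level was 0.108 to 0.403 CPM at 1 h and 0.052 to 1.60 CPM (median 0.413) at 3-8 h, and several of these values are below the CPM of 3 counts. It exceeded 1 CPM in 0 libraries of 1 h, 1 stored library and all 5 of 24 h, through which it entered the test. The fitted log2 fold change was 1.26 (95% interval in DESeq2 0.39 to 2.2, adjusted p 0.502 in edgeR), with 14 of 15 stored libraries above their own 1 h library. H2BC18 had 2 to 5 counts at 1 h and 2 to 24 after storage, and 10 of 15 stored libraries were above their own (fitted log2 fold change 1.08, 95% interval 0.03 to 2.12). It too entered the test through the 24 h libraries, with 1 stored library above 1 CPM. H2AC21 was at 0.58, H2BC12 at 0.54 and H4C14 at 0.34, while H2AC6 (0.08) and H2BC4 (-0.01) hardly differed. H1-4 and H4C3 are among the genes that the study names for 8 h, and ENSBTAG00000051730 is another. The latter had 3.49 to 12.4 CPM at 1 h and 4.09 to 21.0 CPM after storage (log2 fold change 0.42, 95% interval 0.07 to 0.78, adjusted p 0.617 in edgeR).

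The summed level of the 15 histone genes was 27.0 to 39.2 CPM at 1 h and 27.5 to 57.9 CPM at 3-8 h, against 73.1 to 114 CPM at 24 h. Of the 15 stored sums, 7 lay above all 5 sums of 1 h, and the highest belonged to subject E. The mean of the stored sums was above the 1 h sum in 5 of 5 subjects, by a factor of 1.02 to 1.23. Without the library of subject A that stood apart it was above in 4 of 5, with a factor of 0.946 in subject A. Leaving out subject E took the median log2 fold change of the list from 0.23 to 0.13, with 12 of 15 members still higher. With only genes above 1 CPM in every library, 4 of the 15 members remained and their median was 0.06.

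**Figure D4:**
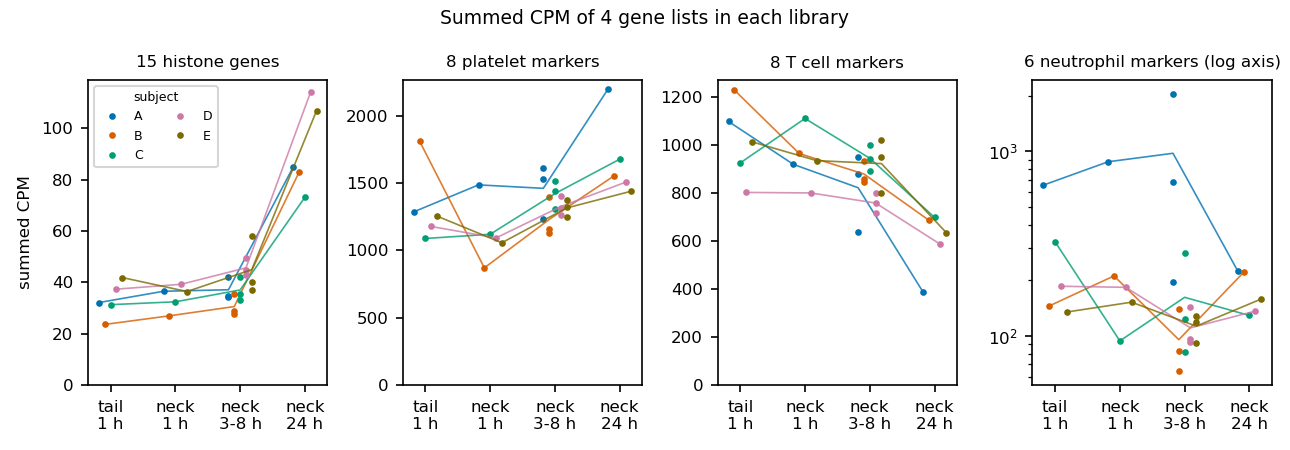
Summed CPM (vertical axes, the neutrophil panel on a log scale) of 15 histone genes, 8 platelet and endothelium markers, 8 T cell markers and 6 neutrophil markers in each library of coccygeal (tail) and jugular (neck) blood, with 1 colour per subject and lines through subject means. Histone sums stay at 27.5 to 57.9 CPM at 3-8 h, and neutrophil sums of subject A reach 2050 CPM.

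T cell markers were slightly lower at 3-8 h. All 8 members tested of 10 listed had a negative log2 fold change, from -0.15 to -0.09 with a median of -0.14, and 0 had an unadjusted edgeR p under 0.05. With the stored libraries summed per subject 5 of the 8 had such a p, all lower, where 3.29% of all genes did. With no block the count was 0. CD2, an adhesion receptor of T cells, had 64.7, 76.7, 86.0, 66.5 and 65.4 CPM at 1 h and 39.6 to 79.5 CPM (median 66.4) after storage. IL7R, the receptor for the survival cytokine interleukin 7, had 184 to 370.1 CPM at 1 h and 159 to 348 CPM after storage (log2 fold change -0.14, 95% interval in DESeq2 -0.33 to 0.05). The coreceptor genes CD4 and CD8A stood at -0.14 and -0.13, and the kinase gene CAMK4 at -0.15. The summed level of the 8 genes was 799 to 1109 CPM at 1 h and 637 to 1019 CPM at 3-8 h, and the lowest value came from the library of subject A that stood apart. The groups overlapped, but within subjects the mean of the stored sums was below the 1 h sum in 5 of 5, by a factor of 0.851 to 0.987. Without that library it was below in 5 of 5 as well, and the median log2 fold change of the list was -0.12. Against coccygeal blood at 1 h the median was -0.29 and 6 members had an unadjusted edgeR p under 0.05, where 1.88% of all genes did in the lower direction, and 0 of the 8 were called.

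The list of lymphocyte Wnt and differentiation factors lay on the low side as well. All 13 members tested of 14 listed had a negative log2 fold change, with a median of -0.09, and 0 had an unadjusted edgeR p under 0.05. Lower members with such a p numbered 5 with the stored libraries summed per subject (3.29% of all genes), 5 without subject A (3.3%), 3 against coccygeal blood (1.88%) and 4 against both veins (2.44%). They numbered 0 when B, C, D or E was left out and with no block. Without the library that stood apart, 10 of the 13 were lower, as they were against coccygeal blood. AXIN2, a feedback inhibitor and target of Wnt signalling, was at -0.28 (95% interval -0.56 to 0.00), LEF1, a Wnt effector, at -0.22 (-0.46 to 0.00), and RORA, a nuclear receptor of helper cells, at -0.17 (-0.37 to 0.02). LEF1 ran from 113 to 201 CPM at 1 h and from 87.3 to 211 CPM after storage, with 10 of 15 stored libraries below their own 1 h library. BCL11B and GATA3, which set T cell identity, were at -0.0048 and -0.0035, so the shared sign covers differences of very unequal size.

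Neutrophil markers varied widely between libraries of both times. TGM3, a transglutaminase abundant in bovine neutrophils, had 553, 72.6, 9.26, 38.2 and 21.8 CPM at 1 h in subjects A to E. Its stored libraries ranged from 1.06 to 1411 CPM with a median of 14.1. Subject A held the highest value at both times, and 12 of 15 stored libraries lay below their own 1 h library (log2 fold change -0.83, 95% interval in DESeq2 -2.53 to 0.58, adjusted p 0.894 in edgeR). STEAP4, a metalloreductase, was at -0.90 (95% interval -2.52 to 0.37) and FFAR2, a receptor for short-chain fatty acids, at -0.46 on 7 to 48 counts. Of the 6 markers tested of 9 listed, 5 were lower, the median was -0.31, and 0 had an unadjusted edgeR p under 0.05. With no block the median was -0.10, with 2 of 6 higher, and TGM3 was at 0.039. Against coccygeal blood the median was -0.22, with 2 of 6 higher, and FFAR2 was at 0.20. The summed level ran from 93.9 to 879 CPM at 1 h and from 64.4 to 2050 CPM at 3-8 h. The value of 2050 CPM came from the stored library of subject A that stood apart, and the other 14 stored libraries held 64.4 to 683 CPM. Without it the median of the list was -0.41, TGM3 was at -1.20 and STEAP4 at -1.28, neither passing edgeR (adjusted p 0.575 and 0.469).

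Monocyte markers were also high in that library, at a summed 917 CPM against 461 to 778 CPM in the other 14, and their median log2 fold change over 6 genes tested of 7 listed was -0.07 with it and -0.15 without it. VCAN, a proteoglycan of monocytes, was at -0.23 (unadjusted edgeR p 0.049, adjusted p 0.642). B cell markers, of which 2 of 6 were tested, had a median of 0.04, with CD79A, a subunit of the B cell receptor, at 474 to 579 CPM after storage against 439 to 559 CPM at 1 h. NK and cytotoxic cell markers (7 of 8 tested) had a median of -0.05 and eosinophil, basophil and mast cell markers (6 of 6 tested) of -0.12. Against coccygeal blood these 2 medians changed sign, to 0.049 (4 of 7 higher) and 0.050 (4 of 6 higher). Red cell markers were not analysed here.

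**Figure D5:**
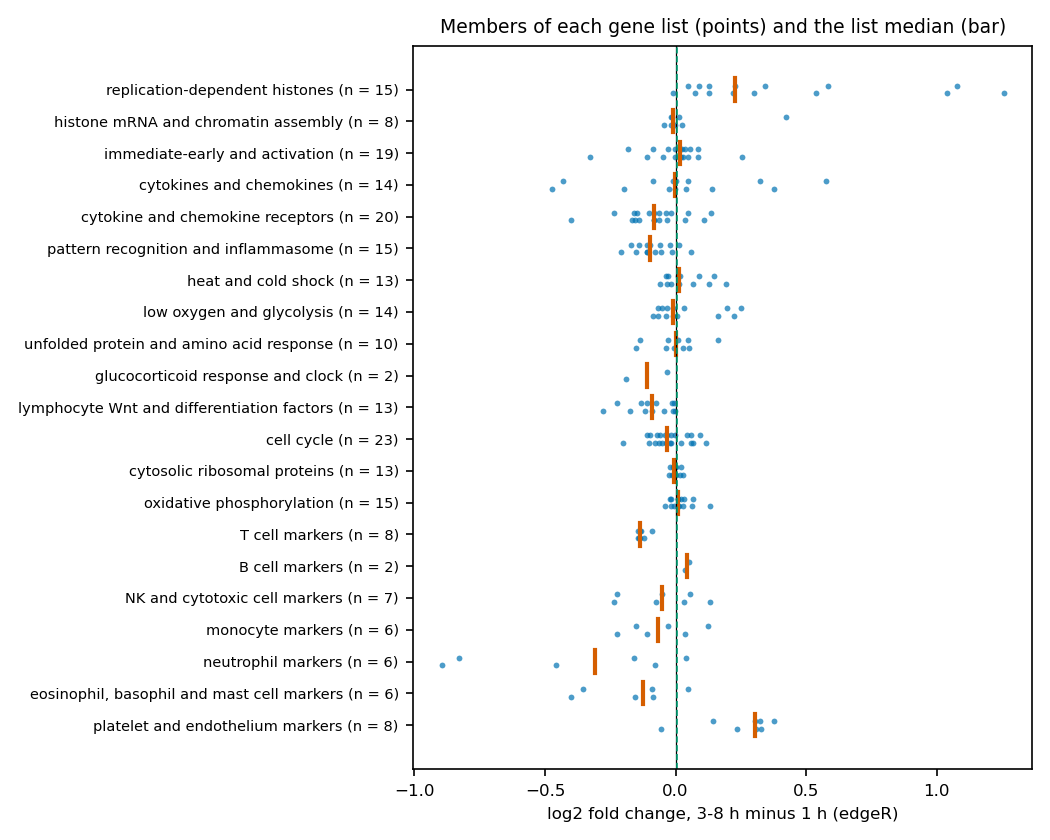
Log2 fold change of 3-8 h minus 1 h in edgeR (horizontal axis) for the tested members of each gene list (vertical axis), with points for genes, a bar at the list median and a dashed line at the median of all genes. Platelet markers have a median of 0.30 and histones of 0.23, T cell markers lie between -0.15 and -0.09, and most other lists have medians near 0.

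Secreted mediators had no common direction. The cytokine and chemokine list had 14 members tested of 27, with 7 higher, 7 lower and a median of 0.00. Of these, 3 had an unadjusted edgeR p under 0.05, where 5.84% of all genes did in the higher direction, and these were neutrophil-attracting chemokines: CXCL2 (0.58, on low counts, and in the test only with the help of the 24 h libraries), CXCL5 (0.38) and CXCL8 (0.32). None passed the adjusted test, and 0 had such a p against coccygeal blood (4.62% of all genes) and 1 against both veins (7.59%). CXCL2 had 0.257 to 0.725 CPM at 1 h and 0.104 to 1.85 CPM after storage, and 12 of 15 stored libraries lay above their own 1 h library. Against coccygeal blood at 1 h its log2 fold change was -0.02. IL1B, the inflammasome-processed cytokine, ran from 18.1 to 179 CPM at 1 h and from 2.91 to 421 CPM after storage (log2 fold change -0.47, 95% interval -1.62 to 0.55), and its log2 fold change was -0.80 without the library that stood apart. The interval includes both directions.

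Receptors lay mostly on the low side of jugular blood at 1 h. Of 20 cytokine and chemokine receptors tested of 25, 16 were lower, where 47.7% of all genes were, with a median of -0.08. Against coccygeal blood 10 were lower and 10 higher, with a median of -0.0079. Lower members with an unadjusted edgeR p under 0.05 numbered 3 there (1.88% of all genes), 3 against both veins (2.44%) and 3 without subject A (3.3%). They numbered 0 without subject B or D and with no block. In the jugular comparison 1 member had an unadjusted edgeR p under 0.05 in the lower direction (1.91% of all genes), and 6 did with the stored libraries summed per subject (3.29%). The 1 gene was IL6ST, the signalling chain shared by the interleukin 6 family, at -0.23 (45.7 to 95.4 CPM at 1 h, 45.4 to 81.8 CPM after storage, adjusted p 0.633). IL5RA, the eosinophil growth factor receptor, was at -0.40 and CCR7, the lymph node homing receptor, at -0.17. Of 15 pattern recognition and inflammasome genes tested of 16, 13 were lower, with a median of -0.10 and 0 at an unadjusted edgeR p under 0.05. Lower members with such a p numbered 5 with the stored libraries summed per subject (3.29% of all genes), 4 without subject A (3.3%) and 4 without the library that stood apart (3.42%). They numbered 0 when B, C, D or E was left out, with no block, and against coccygeal blood or both veins. NAIP, a sensor of bacterial flagellin, was at -0.21, TLR4, the endotoxin receptor, at -0.17 and CD14, its coreceptor, at -0.15. All 3 have intervals that include 0. Their highest stored values, 424, 94.6 and 112 CPM, exceeded every library of 1 h. Without the library that stood apart their log2 fold changes were -0.34, -0.25 and -0.20.

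The tested members of the stress lists showed no common direction. Many listed genes had no symbol here and were not tested. Among them were FOS, JUN and EGR1, the cold-shock genes CIRBP and RBM3, HSPA1A and HIF1A. Immediate-early and activation genes (19 tested of 40) had a median of 0.02 with 0 members at an unadjusted edgeR p under 0.05. MXD1, a MYC antagonist, was at -0.33 and GADD45G, a stress sensor, at 0.26, both with intervals that include 0. Without the library that stood apart MXD1 was at -0.58. Heat and cold shock genes (13 of 27) had a median of 0.01, and 1 of them, the heat shock factor HSF4, had an unadjusted edgeR p of 0.0268 (log2 fold change 0.19, adjusted p 0.592). Low oxygen and glycolysis genes (14 of 26) had a median of -0.01, with the muscle phosphofructokinase PFKM at 0.23 (unadjusted edgeR p 0.0465, adjusted p 0.639). The 10 genes tested of 15 in the unfolded protein and amino acid response had a median of 0.00 and 0 at an unadjusted p under 0.05. Of the glucocorticoid and clock genes 2 of 17 were tested, KLF9, a glucocorticoid-induced factor, at -0.19 (unadjusted edgeR p 0.0416, adjusted p 0.617) and KLF15 at -0.03.

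Housekeeping machinery was nearly level. Cytosolic ribosomal protein genes (13 tested of 15) had log2 fold changes from -0.02 to 0.03. Oxidative phosphorylation genes (15 of 15) had a median of 0.01, with ATP5F1D, an ATP synthase subunit, at 0.13 (unadjusted edgeR p 0.0311, adjusted p 0.597). Cell cycle genes (23 of 25) had a median of -0.03, with CKAP2L, a spindle protein, at -0.20 (unadjusted edgeR p 0.0257, adjusted p 0.592) and the proliferation marker MKI67 at -0.11. Of the 23, 16 were lower. Against coccygeal blood 21 were higher (median 0.056), against both veins 14 (0.014) and without subject C 12 (0.0066). Histone mRNA and chromatin assembly genes (8 of 15) had a median of -0.01, with the histone variant MACROH2A2 at 0.42 (unadjusted edgeR p 0.0274, adjusted p 0.592).

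Some genes had large fold changes without passing either test. Without regard to a test, 77 genes (0.549%) had a log2 fold change above 0.5 and 63 (0.449%) one below -0.5. The 4 genes above 3, none with a symbol, had 26.9 to 327 CPM in the stored library of subject A that stood apart, at most 34.7 CPM in any other stored library and at most 2.26 CPM at 1 h. Their log2 fold changes were 4.17 to 5.42 and their smallest adjusted p in edgeR was 0.579. Without that library 3 of the 4 remained above 3, and their highest log2 fold change was 3.47. The number of genes below -0.5 went from 63 to 129 and that above 0.5 was 77 again. Of the first 77 genes, 62 were still above 0.5, and of the first 63, 62 were still below -0.5.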

How the data were processed

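PWBC RNA was extracted in 1 batch and sequenced from poly(A) libraries. Per the labels and methods, the authors trimmed reads with cutadapt 2.8, aligned them with HISAT2 2.2.0 to ARS-UCD1.2, filtered with SAMtools 1.10, removed duplicates and counted fragments per gene with featureCounts (Subread 2.0.1). The deposited values are raw counts, not normalized, for 27607 genes. Counting did not use strand, so antisense, overlapping and near-identical genes are uncertain.

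Genes with CPM above 1 in at least 5 of 30 libraries (14018) were tested with edgeR 4.0.16 (quasi-likelihood) and DESeq2 1.42.0 in R 4.3.3, both with subject as a block and Benjamini-Hochberg adjustment. The main fit held all 25 jugular libraries, those of 24 h included, so these also shaped its variance estimates. In it the 3 stored libraries of a heifer entered as separate observations, although they are not independent. Intervals are 95% Wald intervals of DESeq2, and the CPM of 3 counts is the floor. Both cover error within these libraries, and floors counting error only. The pairing comes from the study's code for named columns and from runs of library numbers for stored ones, with every stored library closest to its own run. Symbols (1746 tested genes) come from the study's supplementary tables, whose genes were chosen on these libraries, so list counts are not independent evidence. The members and lists were chosen with earlier results of these data known.

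With fewer than 10 genes called, the 10 named genes with the smallest edgeR p in each direction were named, with the 3 members of each list that had the largest absolute log2 fold change, a gene the study names for 8 h, and up to 2 unnamed genes per direction. Fits were run on simulated data, in which each library was drawn independently around the mean of its subject. Further dependence among the stored libraries of a heifer was not simulated. Alternatives were other scalings, filters, fits, baselines, thresholds, no block and leaving out each heifer. DESeq2 adjustment over all genes and leaving out the library that stood apart were chosen after seeing the data.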

Additional observations from a re-analysis of the deposited data

Results flagged for a closer look

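Of 178 sets of 5 subject values, 9 held 1 value far from the others, and chance gives such a value in about 1 in 20 sets. Subject A at 1 h stood high for STEAP4 (114 CPM), TGM3 (553 CPM), MXD1 (211 CPM), IL1B (179 CPM), TGFA (4.87 CPM) and the summed neutrophil markers (879 CPM). At 1 h, subject D differed from the others in DOCK8 (544 CPM) and subject B in NDUFA10 (93.8 CPM). The log2 ratio of stored to 1 h blood for JAK1 in subject E was -0.15.

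For 12 of 84 named genes (where 1.29% of all genes tested were called) the change by 24 h differed from that by 3-8 h, tested directly as 24 h minus 3-8 h and called by edgeR and DESeq2. Many of the named genes come from lists already known to differ at 24 h. The log2 difference was 2.44 for H4C3, 2.43 for H1-4, 1.71 for ENSBTAG00000051730 and 1.05 for ENSBTAG00000028359. H4C3 entered the test only through the 24 h libraries, where it is high, so its call here is a description. The log2 difference was -1.84 for GATA2, -0.99 for AXIN2, -0.85 for IL1RL1, -0.74 for IL7R, -0.66 for LEF1, -0.62 for CRTAM, -0.59 for KLF15 and -0.53 for IL6ST.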

How the results depend on the processing

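The count of called genes was 0 under every alternative except the baseline of jugular and coccygeal 1 h libraries together, where it was 1 (ENSBTAG00000028359, log2 fold change 1.54, adjusted p 0.0371 in edgeR, higher). Leaving out each heifer in turn gave 0 to 0 called genes. Without the block, 0 genes were called, and 145 higher and 59 lower had an unadjusted edgeR p under 0.05, against 819 and 268 with the pairing; the total count difference had an exact permutation p of 0.437 unpaired. Without subject B 437 higher, without subject A 463 lower and without subject C 155 lower genes had such a p, summing the stored libraries per subject gave 461 lower, and leaving out the library of subject A that stood apart gave 480 lower. DESeq2 alone passed 1 gene, but 69 without subject A, 12 without subject D, 37 after summing and 80 with both baselines. It passed 4 with only the 20 libraries of 1 h and 3-8 h. Among choices made after seeing the data, it passed 4 with adjustment over all genes and 17 without the library that stood apart (edgeR 1). The 1 gene, PPBP, was not among the 1 that passed without subject B, the 3 without C, the 3 without E or the 5 against coccygeal blood. With no block 0 passed DESeq2. edgeR alone passed 1 gene after summing (adjusted p 0.00348) and 7 with both baselines. The difference in total count per library ranged from -212796 (without subject E) to 1487540, and that of genes detected from 44.7 to 93.3. No named gene was called in the main fit, so one kept its side of the threshold by staying uncalled. Alternatives that changed only the tool, the threshold or the DESeq2 adjustment reused the main log2 fold change, so their sign could not change. Of 1752 alternative values for 84 named genes, 1725 kept direction and side of the threshold and 26, in 16 genes, changed sign. The cause of the 26 sign changes was not tested. Against coccygeal blood these were PPBP -0.01, CXCL2 -0.018, FFAR2 0.20, HSPBP1 -0.015, IL1RL1 0.13, GATA2 0.26, MKI67 0.070, SERPINH1 -0.42, GZMB 0.29, ATAD2 0.049, RPLP2 -0.039 and RPL19 -0.098. With both baselines they were SERPINH1 -0.17, GZMB 0.013, ATAD2 0.0011, RPLP2 -0.0040 and RPL19 -0.038. Without the block they were TGM3 0.039 and KLF15 0.019. Leaving out each heifer in turn gave -0.0043 to 0.069 for FCRL5, -0.057 to 0.049 for RPL23 and -0.094 to 0.11 for KLF15 (sign changed without subject B), -0.0089 to 0.11 for RPLP2 (without D) and -0.011 to 0.098 for RPL19 (without C, D at -0.0015 or E). Low counts limit the histone genes and CXCL2, and a filter of CPM above 1 in every library left some named genes without a value.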
